A study of Mus musculus with 6 samples.

Results

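The genes described here are Ldb1, Ldb2, Lmo1, Lmo2, Lmo3, Lmo4, Ssbp2, Ssbp3 and Ssbp4, which encode the cofactors of LIM-domain transcription factors. They are the 9 genes of those names among the 56805 genes of a count table from mouse samples labelled as motor neurons. Cervical libraries (n = 3) and thoracic libraries (n = 3) hold motor neurons of the cervical and of the thoracic spinal cord at e12.5, all from embryos labelled as control in genotype and as untreated. Ribosomal RNA was removed and stranded libraries were made. A replicate is called biological without a statement of its source animals. The p-values therefore cover the spread between these libraries. Strain and isolation method are not given in the sources used. The family was chosen because Ldb2 differed between the regions in these same libraries, so the region difference of Ldb2 is described without a test.

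LIM-homeodomain factors such as Isl1 and Lhx3 give spinal neurons their identity by forming complexes on DNA. Ldb1 and Ldb2 bind the LIM domains of these factors and dimerise, which joins LIM-homeodomain proteins into larger complexes. In developing motor neurons Isl1, Lhx3 and an Ldb protein form such a complex, whereas Lhx3 and Ldb without Isl1 specify V2a interneurons. The Lmo proteins consist of little more than LIM domains, do not bind DNA themselves and compete for Ldb or bridge it to GATA and bHLH factors. The Ssbp proteins bind Ldb and protect it from degradation. Ssbp1 shares the name but is a mitochondrial protein that binds single-stranded DNA, and it is not a member.

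Motor neuron markers were present in every library, and so were markers of other neural cells. The 7 motor neuron markers (Mnx1, Isl1, Isl2, Chat, Slc18a3, Slc5a7 and Prph) summed to 294 to 594 CPM (counts scaled to library size) in cervical and 349 to 547 CPM in thoracic libraries. The 10 interneuron markers summed to 1448 to 1592 CPM in cervical against 1220 to 1276 CPM in thoracic libraries, with no overlap. The 6 progenitor markers summed to 599 to 746 CPM in cervical against 758 to 959 CPM in thoracic libraries. In every library both sums exceeded that of the motor neuron markers. The lists differ in their genes, so the sums do not give the shares of cell types. In such bulk samples, fewer cells of a type and less RNA per cell cannot be told apart. Library totals were 32103071 to 33790634 counts, apart from thoracic replicate 1 with 53186131. The quasi-likelihood test of edgeR was used with Benjamini-Hochberg adjustment, and a gene was called below 0.05. Of 21972 genes tested 119 (0.542%) were called, 42 (0.191%) of them higher in cervical and 77 (0.35%) in thoracic libraries. With the replicate number as a block there were 432 (1.97%), with 126 (0.573%) higher in cervical libraries and 306 (1.39%) in thoracic ones.

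How far reads of paralogs can be told apart depends on how much sequence they share. In the annotated coding sequences (GENCODE M21, build GRCm38) Ldb1 and Ldb2 were identical at 73.2% of 1117 aligned bases, and their longest identical run was 23 bases. Runs shared between any pair of the Lmo genes were at most 20 bases, as were those between any pair of the Ssbp genes. The 90 coding bases around the longest run shared by Ldb2 and Ldb1 are shown because the contrast between these paralogs rests on reads assigned to 1 of them. Capitals mark the 23 positions at which they differ.
Ldb2, coding bases 850 to 939, chromosome 5, minus strand: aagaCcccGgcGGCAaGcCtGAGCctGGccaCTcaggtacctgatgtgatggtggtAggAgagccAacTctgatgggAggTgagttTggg
Ldb1, coding bases 964 to 1053, chromosome 19, minus strand: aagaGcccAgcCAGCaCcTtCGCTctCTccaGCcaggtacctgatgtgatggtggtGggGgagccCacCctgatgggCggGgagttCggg
The differences lie on both sides of the shared run. The read length is not known here, so how many reads fit both paralogs was not tested.

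All 9 genes were detected in every library, with 249 to 23600 reads each, and all passed the low-count filter. Levels are compared between genes as RPKM, the CPM divided by exon length in kilobases, since longer genes collect more reads. Ldb1 and Ssbp3 stood far above the rest in both regions. Ldb1 averaged 68.9 ± 3.82 RPKM in cervical against 65.5 ± 3.33 RPKM in thoracic libraries, and Ssbp3 68.5 ± 2.80 RPKM in cervical against 68.8 ± 2.10 RPKM in thoracic libraries (SD, n = 3 each). Their ranges over libraries overlapped in each region, and the ratio of Ssbp3 to Ldb1 lay between 0.973 and 1.01 in cervical and between 1.001 and 1.11 in thoracic libraries.

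Below these came the LIM-only genes and Ssbp4. Lmo4 followed at 19.5 ± 0.912 RPKM in cervical against 20.3 ± 0.247 RPKM in thoracic libraries. Lmo3 (17.0 ± 0.396 RPKM in cervical, 15.1 ± 0.405 RPKM in thoracic libraries) and Ssbp4 (16.8 ± 1.15 RPKM in cervical, 16.3 ± 1.31 RPKM in thoracic libraries) overlapped each other in both regions. Lmo2 was sixth in both regions, apart from its neighbours, at 13.2 ± 0.771 RPKM in cervical against 9.66 ± 0.297 RPKM in thoracic libraries. The lowest places were held by Lmo1, Ssbp2 and Ldb2, and their order differed between the regions. In cervical libraries they were ordered Lmo1, Ssbp2 and Ldb2 with no overlap, and in thoracic libraries Ldb2, Lmo1 and Ssbp2, with neighbours overlapping. Exon lengths count every annotated exon, so a gene with many alternative exons has its level understated on this scale.

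**Figure D1:**
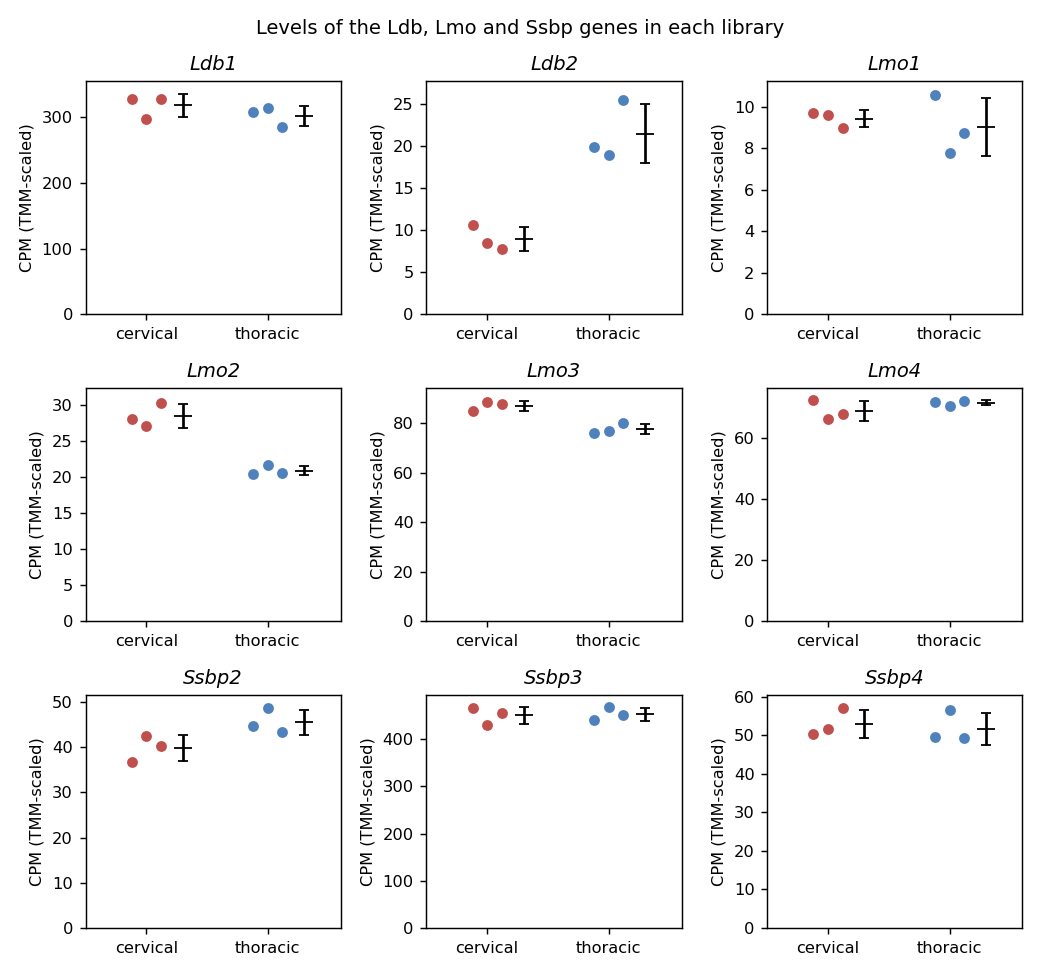
TMM-scaled CPM (vertical axis, from 0) of each of the 9 genes in the 3 cervical and 3 thoracic libraries. Points are libraries, and black bars are the mean and SD (n = 3). Ldb2 lies at 7.79 to 10.6 CPM in cervical libraries, below every thoracic library (18.9 to 25.5 CPM), while most other genes overlap or lie close.

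Ldb2, the less abundant of the LIM-domain-binding paralogs, stood lower in cervical libraries. Its levels were 10.6, 8.45 and 7.79 CPM in cervical replicates 1, 2 and 3, against 19.9, 18.9 and 25.5 CPM in thoracic replicates 1, 2 and 3. Every cervical library lay below every thoracic one, and the highest thoracic value was that of replicate 3. The means were 8.95 ± 1.47 CPM in cervical against 21.4 ± 3.53 CPM in thoracic libraries (SD, n = 3 each), 2.39-fold lower in cervical (log2 fold change -1.26, SE 0.15). Leaving out each library in turn gave log2 fold changes between -1.40 and -1.12, and without the deeper thoracic replicate 1 it was -1.31. These values prompted the choice of the family, and no test is given for them. Within a region Ldb2 varied more than most members, with an SD of 16.4% of the mean in cervical and 16.5% in thoracic libraries.

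Ldb1, the main LIM-domain-binding gene, differed less. Its levels were 328, 297 and 328 CPM in the cervical replicates, against 308, 313 and 284 CPM in the thoracic replicates, which overlap. The log2 fold change was 0.07 (SE 0.06, edgeR adjusted p = 0.859), and 2 SE either side reach from -0.06 to 0.20. The difference of Ldb2 prompted the choice of the family, so the contrast between the paralogs was not tested. The sum of both Ldb genes was 71.6 ± 3.98 RPKM in cervical against 71.9 ± 2.27 RPKM in thoracic libraries. Ldb2 made up 3.18 to 4.27% of this sum in cervical and 7.71 to 11.01% in thoracic libraries. Ldb1 outnumbered Ldb2 by 22.4 to 30.4 times per length in cervical libraries and by 8.08 to 11.98 times in thoracic ones. Ldb1 shares 177 exonic bases with Pprc1 on the opposite strand, and the strand setting of the counting is not known, so a part of its reads cannot be assigned with certainty.

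**Figure D2:**
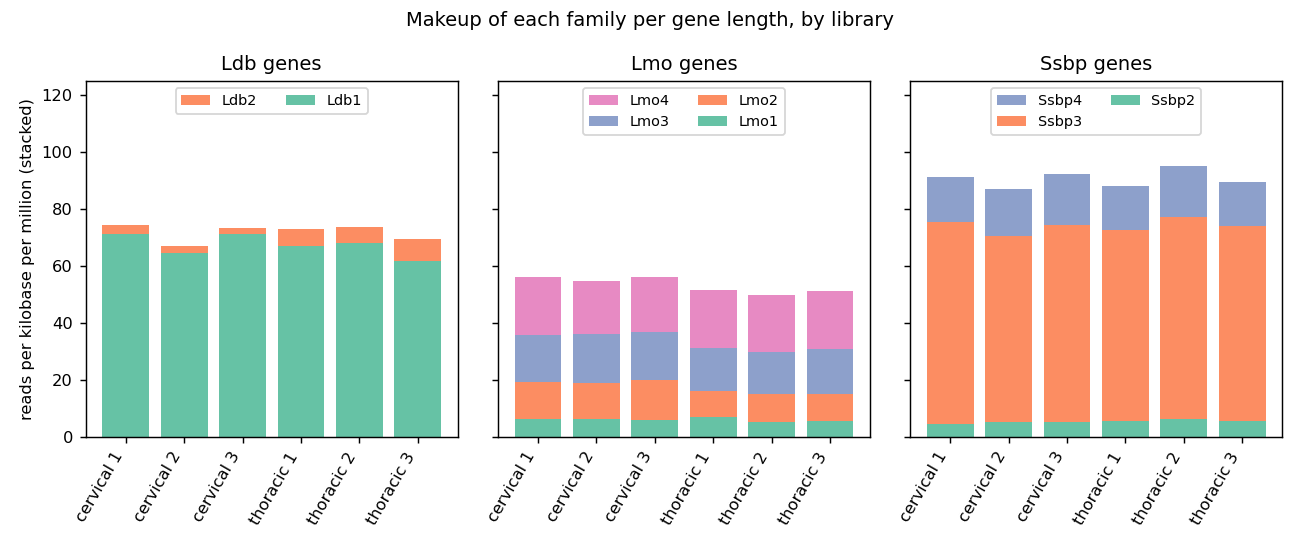
RPKM of the Ldb, Lmo and Ssbp genes stacked by family (vertical axis, from 0) in each cervical and thoracic library. Ldb2 is a thin band on Ldb1 (3.18 to 4.27% in cervical, 7.71 to 11.01% in thoracic libraries), the Lmo stack is taller in cervical libraries, and Ssbp3 takes about the same share of its stack everywhere.

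The Ldb2 gene spans 44629474 to 44957022 on chromosome 5 (mm39, minus strand). Its nearest tested neighbours lie far away, Gm42984 at 229 kb before its lower coordinate and Qdpr, which encodes dihydropteridine reductase, at 634 kb after its upper one. Qdpr stood at 14.2 ± 2.04 CPM in cervical against 13.3 ± 0.503 CPM in thoracic libraries (edgeR adjusted p = 0.932, log2 fold change 0.09, SE 0.13). Gm42984 was low, at 0.868 ± 0.349 CPM in cervical against 0.571 ± 0.427 CPM in thoracic libraries (edgeR adjusted p = 0.899, log2 fold change 0.56, SE 0.60). Neither neighbour was called, and the interval of Gm42984 is wide. Gm42984 shares 40 exonic bases with Tapt1 on the opposite strand, which had a mean of 1716 counts against 26.7 for Gm42984. With the strand setting not known, a part of its reads cannot be assigned with certainty.

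Among 10025 tested genes with a mean of at least 10 CPM, those whose pattern over the 6 libraries came closest to that of Ldb2 were Kcnab1, Cacna1e, Tmtc1, Creb5 and Grin2a. Likeness is the root mean square difference of log2 CPM after centring each gene on its own mean, so it includes the difference between the regions and is given without a test. Kcnab1, an auxiliary subunit of voltage-gated potassium channels, was nearest with a distance of 0.0841, against 0.188 to 0.198 for the next 4. Kcnab1 measured 13.0, 9.42 and 9.67 CPM in the cervical replicates, against 23.2, 23.9 and 34.1 CPM in the thoracic replicates. Like Ldb2 it was highest in thoracic replicate 3 and, among cervical libraries, in replicate 1, as its choice by likeness to Ldb2 favours. Cacna1e and Grin2a encode a voltage-gated calcium channel and an NMDA receptor subunit, Creb5 a transcription factor and Tmtc1 a protein of the endoplasmic reticulum. Cacna1e averaged 81.8 ± 11.97 CPM in cervical against 160.5 ± 41.3 CPM in thoracic libraries, and Tmtc1 16.8 ± 0.876 CPM in cervical against 32.8 ± 3.18 CPM in thoracic libraries. Kcnab1 shares 201 exonic bases with A330015K06Rik on the opposite strand, which had a mean of 63.8 counts against 696 for Kcnab1.

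**Figure D3:**
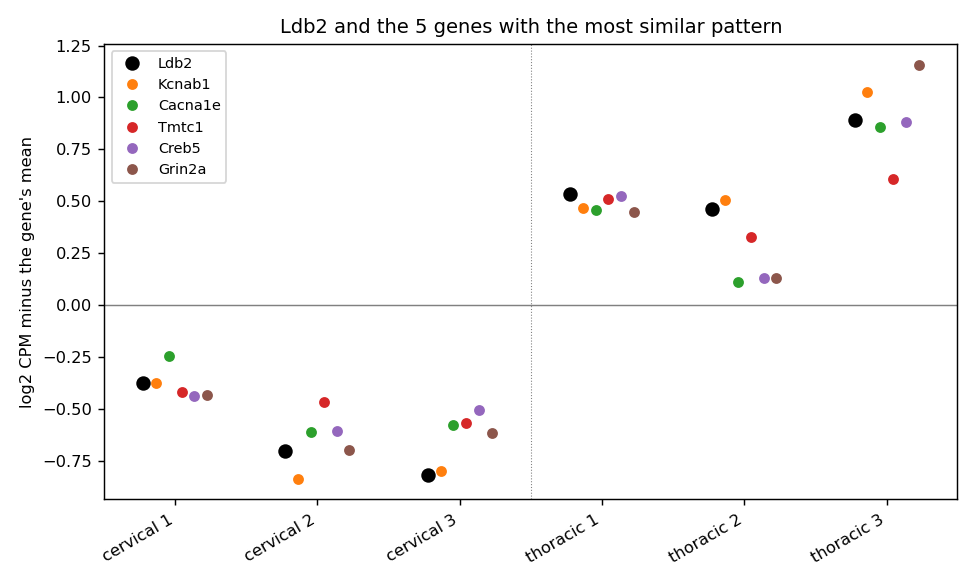
Log2 CPM of Ldb2 and the 5 genes with the most similar pattern, each minus its own mean over the 6 libraries (vertical axis), by library. Points are libraries, set slightly apart by gene. All 6 genes lie below 0 in every cervical and above 0 in every thoracic library, as their choice by likeness to Ldb2 favours.

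Of the 8 other members edgeR on region alone called none, at a background of 0.542% of all genes (0.191% upward in cervical, 0.35% in thoracic libraries). With the replicate number as a block it called 1 (Lmo2), against 1.97% of all genes. Nothing is read from these counts because the family was chosen from this contrast. At an unadjusted p below 0.05 there were 3 (Lmo2, Lmo3 and Ssbp2; 8.47% of all genes), and DESeq2 called 1 (Lmo2), against 1.9% of the 20948 genes to which it gave an adjusted p. The same 3 genes had no overlap between the regions, as did 13.7% of all genes. The log2 fold changes of the 8 lay between -0.19 and 0.45, with a median of 0.05 against 0.01 over all genes tested.

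The members other than Ldb2 are spread over the genome (mm39 coordinates of the deposited table). Ldb1 lies on chromosome 19 from 46020009 to 46033653, Lmo1 on chromosome 7 from 108737779 to 108774414, Lmo3 on chromosome 6 from 138339916 to 138558966, and Lmo4 on chromosome 3 from 143894291 to 143910981. Lmo2 lies on chromosome 2 from 103788331 to 103812223. Ssbp2 lies on chromosome 13 from 91608402 to 91851548, Ssbp3 on chromosome 4 from 106767898 to 106906891, and Ssbp4 on chromosome 8 from 71050140 to 71061522. Lmo2, Ssbp2 and Ssbp3 are on the plus strand and the others on the minus strand, and all values are over the annotated exons of each gene.

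Lmo2, a LIM-only gene required for blood and vessel formation, had the largest difference of these 8. It measured 28.1, 27.1 and 30.4 CPM in the cervical replicates, against 20.5, 21.7 and 20.7 CPM in the thoracic replicates. The regions did not overlap, and the gap between them exceeded the range within either. The mean was 1.36-fold higher in cervical libraries (log2 fold change 0.45, SE 0.09), with an edgeR adjusted p of 0.0611 without and 0.0237 with the replicate number as a block. DESeq2 also called it (adjusted p = 0.00273), and the edgeR adjusted p was 0.0926 to 0.249 when any 1 library was left out, all at a log2 fold change of 0.40 to 0.48.

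Markers of blood and vessels were present at low levels. The 8 erythroid markers summed to 9.89 to 23.1 CPM in cervical against 7.27 to 10.7 CPM in thoracic libraries, 4 of them at 0 in at least 1 library. The 7 endothelial markers summed to 5.80 to 13.96 CPM in cervical against 9.66 to 14.97 CPM in thoracic libraries. Of the 10 marker lists, the interneuron markers were the ones whose sums were higher in every cervical library, like Lmo2. Of these 10 interneuron markers 2 were called, both higher in cervical libraries, against 0.191% of all genes tested called in that direction. The part of these cells in the level of Lmo2 was not tested.

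The other LIM-only genes differed less. Lmo3 measured 84.8, 88.7 and 87.8 CPM in the cervical replicates, against 76.3, 76.7 and 80.1 CPM in the thoracic replicates. These do not overlap, but the difference was 1.12-fold and not called (edgeR adjusted p = 0.409, log2 fold change 0.17, SE 0.06). Lmo4, which in mouse takes part in setting apart motor neurons and V2 interneurons, measured 72.5, 66.3 and 67.9 CPM in the cervical replicates, against 71.8, 70.6 and 72.3 CPM in the thoracic replicates. Its regions overlapped (edgeR adjusted p = 0.910, log2 fold change -0.05, SE 0.06), and 2 SE either side reach from -0.18 to 0.07. Lmo1, also the LIM-only gene with the lowest RPKM, was at 8.95 to 9.70 CPM in cervical against 7.76 to 10.5 CPM in thoracic libraries (edgeR adjusted p = 0.966, log2 fold change 0.06, SE 0.14).

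Together the 4 LIM-only genes gave 54.8 to 56.3 RPKM in cervical against 49.9 to 51.4 RPKM in thoracic libraries, with no overlap. Lmo2 made up 23.6 ± 1.18% of this sum in cervical and 19.0 ± 0.893% in thoracic libraries, and Lmo4 35.0 ± 1.28% in cervical and 39.8 ± 0.270% in thoracic libraries (SD, n = 3 each). The share of Lmo4 was lower in every cervical library than in any thoracic one (two-sided exact permutation test, p = 0.1, the smallest that 3 against 3 libraries can give). Exchanged within the 3 same-numbered pairs, an analysis added after seeing the data, the exact permutation p was 0.25, again the smallest possible. The level of Lmo4 itself overlapped between the regions, so the lower share goes with the larger sum of the other 3 genes in cervical libraries. Lmo3 made up 30.5 ± 1.10% in cervical and 29.8 ± 0.794% in thoracic libraries, and Lmo1 10.9 ± 0.540% in cervical and 11.4 ± 1.64% in thoracic libraries.

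The Ssbp genes, whose products stabilise Ldb proteins, were nearly level between the regions. Ssbp3 measured 466, 430 and 456 CPM in the cervical replicates, against 440, 468 and 451 CPM in the thoracic replicates. These overlap throughout (edgeR adjusted p = 0.991, log2 fold change -0.01, SE 0.06, with 2 SE either side from -0.13 to 0.11). Ssbp3 made up 75.9 ± 1.45% of the 3 Ssbp genes per length in cervical and 75.8 ± 0.885% in thoracic libraries (two-sided exact permutation test, p = 0.8, n = 3 each). Ssbp4 measured 50.3, 51.6 and 57.1 CPM in the cervical replicates, against 49.4, 56.5 and 49.2 CPM in the thoracic replicates, which overlap (edgeR adjusted p = 0.962, log2 fold change 0.04, SE 0.08). Ssbp2 was lower in each cervical library, at 36.6, 42.5 and 40.2 CPM, than in the thoracic replicates, at 44.7, 48.6 and 43.3 CPM. The difference was 1.14-fold and not called (edgeR adjusted p = 0.559, log2 fold change -0.19, SE 0.08). Ssbp2 shares 1765 exonic bases with 4833422C13Rik on the opposite strand, which had a mean of 195 counts against 1549 for Ssbp2, so its level is uncertain to that extent. Ssbp1, the mitochondrial namesake, stood at 20.2 ± 2.08 CPM in cervical against 18.0 ± 2.09 CPM in thoracic libraries (edgeR adjusted p = 0.821, log2 fold change 0.16, SE 0.12).

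The LIM-homeodomain genes encode the factors that Ldb proteins bridge. Of 12 LIM-homeodomain genes 9 were tested and 2 were called, against 0.542% of all genes tested. Lhx1, a gene of lateral limb motor neurons and several interneurons, rose in cervical libraries. Lmx1b, a gene of dorsal excitatory interneurons, fell there. Lhx1 measured 364, 328 and 379 CPM in the cervical replicates, against 276, 265 and 243 CPM in the thoracic replicates (edgeR adjusted p = 0.0256, log2 fold change 0.45, SE 0.07). Lmx1b measured 6.66, 7.28 and 8.48 CPM in the cervical replicates, against 18.1, 13.9 and 15.2 CPM in the thoracic replicates (edgeR adjusted p = 0.0143, log2 fold change -1.08, SE 0.14). Lhx1, Lmx1b, Lhx2 and Lhx9 had no overlap between the regions (4 of the 9), as did 13.7% of all genes tested. With the block, which called 1.97% of all genes, 2 more were called, both higher in thoracic libraries. These were Isl1 (log2 fold change -0.62, edgeR adjusted p = 0.181, blocked 0.00105) and Lhx9, a gene of dorsal commissural interneurons (-0.77, edgeR adjusted p = 0.0611, blocked 0.00656). The median log2 fold change of the 9 was -0.33, with 4 above and 5 below 0. Over all genes tested it was 0.01, with 11447 above and 10525 below 0. The widest of the 9 was Lhx2 at 2.45, 4.02 and 6.79 CPM in cervical libraries, against 2.37, 0.705 and 0.494 CPM in thoracic ones, which was not called (edgeR adjusted p = 0.246, log2 fold change 1.82, SE 0.52).

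Lhx3, which shares the motor neuron complex with Isl1, stood at 28.8 ± 13.6 CPM in cervical against 28.7 ± 4.81 CPM in thoracic libraries. Its log2 fold change near 0 has an SE of 0.28, too wide to bound it as closely as Ldb1. The 12 LIM-homeodomain genes summed to 185 to 232 RPKM in cervical against 188 to 203 RPKM in thoracic libraries, above the 67.0 to 74.3 RPKM in cervical against 69.3 to 73.6 RPKM in thoracic libraries of both Ldb genes. Lhx1 and Lhx5 made the largest part of that sum, at 87.6 ± 6.41 and 79.9 ± 6.70 RPKM in cervical and 64.2 ± 4.15 and 73.3 ± 2.16 RPKM in thoracic libraries. Levels of RNA do not give the ratio of the proteins.

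Among 11 GATA and bHLH partners 10 were tested and 1 was called, against 0.542% of all genes tested. Gata3, which with Gata2 and Tal1 marks V2b interneurons and cerebrospinal fluid-contacting neurons, fell in cervical libraries. It measured 12.4, 10.7 and 11.5 CPM in the cervical replicates, against 17.5, 20.4 and 24.4 CPM in the thoracic replicates (edgeR adjusted p = 0.0249, log2 fold change -0.85, SE 0.13). Gata2 (log2 fold change -0.38, edgeR adjusted p = 0.492) and Tal1 (-0.27, edgeR adjusted p = 0.684) were not called. The bHLH genes Tcf3, Tcf4 and Tcf12, which are broadly expressed, had log2 fold changes between -0.06 and -0.02, and the proneural Neurog2 one of 0.18 (edgeR adjusted p = 0.718). The median of the 10 was -0.13, with 2 above and 8 below 0. Over all genes tested it was 0.01, with 11447 above and 10525 below 0. Gata3 shares 155 exonic bases with Gm13256 on the opposite strand and 77 with 9230102O04Rik on its own, with means of 9.67 and 4.67 counts against 588.

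None of 3 genes for other Ldb or Lmo partners was called by edgeR, with or without the block, or by DESeq2. None had an unadjusted p below 0.05. Over all genes the shares were 0.542% by edgeR, 1.97% with the block, 1.9% by DESeq2 and 8.47% at the unadjusted p. Rlim encodes a ubiquitin ligase that targets Ldb proteins, and stood at 237.6 ± 4.74 CPM in cervical against 237.4 ± 21.2 CPM in thoracic libraries (edgeR adjusted p = 0.998). Its log2 fold change was within 0.01 of 0 and turned sign with the scaling. Deaf1, which binds Lmo4, had a log2 value of cervical over thoracic of 0.08 (SE 0.06, edgeR adjusted p = 0.837), and Rbbp8, also a binding partner of Lmo4, one of -0.08 (SE 0.11, edgeR adjusted p = 0.924). Rbbp8 shares 402 exonic bases with Gm50069 on the opposite strand.

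Of 8 genes that LIM complexes are known to regulate or that mark the neurons they specify, 7 were tested and 1 was called. The share called over all genes tested was 0.542%. Bhlhe22, a bHLH gene of several dorsal and ventral interneurons, rose in cervical libraries, at 89.99, 97.3 and 101.3 CPM in the cervical and 73.8, 71.8 and 77.4 CPM in the thoracic replicates (edgeR adjusted p = 0.0400, log2 fold change 0.37, SE 0.07). The motor neuron gene Mnx1 stood at 186 ± 47.3 CPM in cervical against 166 ± 30.2 CPM in thoracic libraries (log2 fold change 0.16, edgeR adjusted p = 0.903). The acetylcholine genes Slc18a3, a vesicular transporter (-0.51, edgeR adjusted p = 0.740), and Slc5a7, the choline transporter (-0.57, edgeR adjusted p = 0.770), varied widely within each region. The block called Slc18a3 (0.0303) but not Slc5a7 (0.0631). Sox14, a gene of V2a interneurons, had -0.66 as its log2 fold change (adjusted p = 0.217 by edgeR and 0.115 with the block). It was called by DESeq2 (adjusted p = 0.0275) and by edgeR with no low-count filter (0.00489). The median of the 7 was -0.25, with 2 above and 5 below 0. Over all genes tested it was 0.01, with 11447 above and 10525 below 0.

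**Figure D4:**
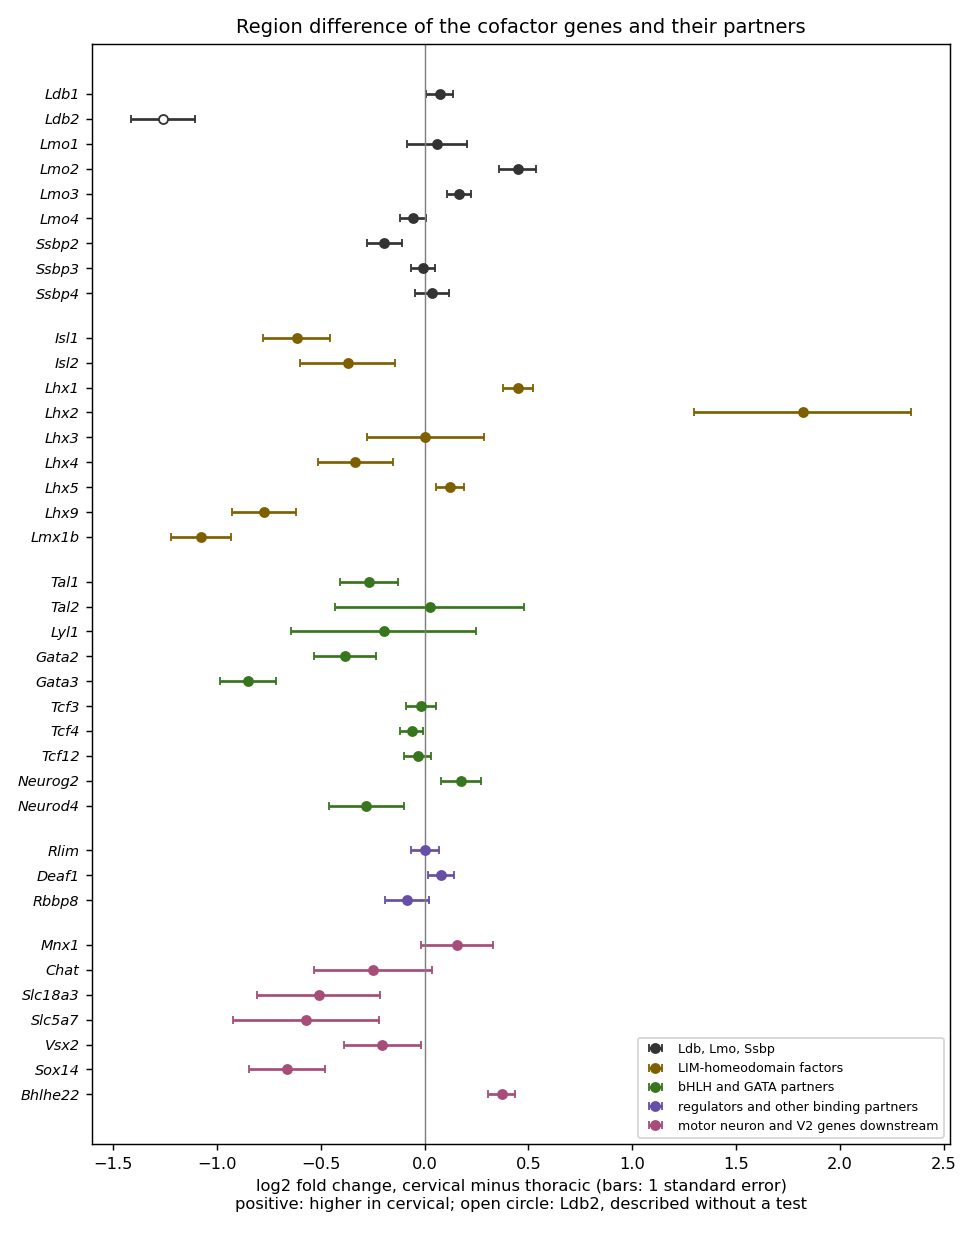
Log2 fold change (cervical minus thoracic) with 1 standard error for the 9 cofactor genes, the tested LIM-homeodomain genes, GATA and bHLH partners, other partners and downstream genes. Ldb2 (open circle, -1.26) is described without a test. The other cofactors lie between -0.19 and 0.45, while LIM-homeodomain genes reach from -1.08 for Lmx1b to 1.82 for Lhx2, which was not called.

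Leaving out single libraries ended calls of partner genes, while their log2 fold changes stayed at 0.40 to 0.50 for Lhx1, -1.18 to -0.96 for Lmx1b, -0.96 to -0.72 for Gata3 and 0.33 to 0.42 for Bhlhe22. Without cervical replicate 3 none of the 4 was called, and over all genes 9 were called in place of 119. The adjusted p of edgeR over the fits that left out a library were 0.0348 to 0.146 for Lhx1, 0.0185 to 0.0545 for Lmx1b, 0.0150 to 0.119 for Gata3 and 0.0201 to 0.206 for Bhlhe22. Lhx1 was also lost without thoracic replicate 2 or 3, Lmx1b without cervical replicate 2, Gata3 without cervical replicate 2 or thoracic replicate 2 or 3, and Bhlhe22 without each library except cervical replicate 1.

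The cofactors other than Ldb2 varied little between replicates, compared with the motor neuron genes. Their SD within a region was 1.22 to 8.02% of the mean, apart from Lmo1 in thoracic libraries with 15.7%. Motor neuron markers summed highest in replicate 1 of both regions (594 CPM in cervical, 547 CPM in thoracic libraries) and lowest in replicate 2 (294 CPM in cervical, 349 CPM in thoracic libraries). Ldb2 was highest in replicate 1 among cervical libraries but in replicate 3 among thoracic ones. Mesenchyme markers, a further cell type in which levels varied, summed to 20.6, 67.9 and 216 CPM in cervical and 131, 154 and 217 CPM in thoracic replicates 1, 2 and 3. Among cervical libraries replicate 3 had the highest mesenchyme sum and the lowest Ldb2 level, 7.79 CPM. Among thoracic libraries replicate 3 was highest in both, with Ldb2 at 25.5 CPM. Progenitor markers, like Ldb2, were lower in every cervical library (599, 746 and 636 CPM) than in any thoracic library (758, 959 and 866 CPM). None of the 6 was called, against 0.542% of all genes tested. The part of other cells in the level of Ldb2 was not tested.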

How the data were processed

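Whole-number counts of reads per gene were deposited for 6 libraries (3 cervical, 3 thoracic). The authors used FastQC 0.11.9, STAR 2.7.5b and featureCounts 2.0.1 with build mm39, per the submitters' processing notes. RNA was taken at 10 to 20 ng and amplified over 15 PCR cycles, per the labels' protocols. The annotation release and strand setting are not given. The other deposited column used is the exon length per gene.

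Counts were tested with edgeR 4.0.16 in R 4.3.3 (minimum count 10, TMM, quasi-likelihood test on region alone, prior count 0.125, Benjamini-Hochberg adjustment over 21972 genes). Genes not tested held 0.117% of counts. Log2 fold changes are cervical minus thoracic, and the SE is their size over the square root of F. CPM is TMM-scaled. RPKM is CPM over exon length in kilobases. The code was tested on simulated data. Alternatives were DESeq2 1.42.0, other scalings and filters, the replicate block and leaving out each library. Same-numbered cervical and thoracic libraries, numbered in the sample titles, deviated together (correlations 0.163, 0.160 and 0.195), so the numbers were taken to pair the libraries. The test on region alone ignores this pairing, and the replicate block takes it into account. Libraries of a region differed by 10.1 to 16.2 times the counting noise and were each counted as 1 sample.

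The members and lists were chosen with earlier results of these data known. Named were every member, each list's called genes, its 4 smallest adjusted p and its most abundant gene, the neighbours of Ldb2 and the 5 genes of most similar pattern. Lhx2, Lhx3, Lhx5, Tcf3 and Tcf12 were named after their values were seen.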

Additional observations from a re-analysis of the deposited data

How the results depend on the processing

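The log2 fold change of Ldb2 lay between -1.261 and -1.255 under every scaling, filter, tool and block tried, and between -1.40 and -1.12 without 1 library. The count of called genes (119) became 398 with DESeq2, 747 with no low-count filter and 432 with the replicate block, and 9 to 159 without 1 library. Among the 8 other members, 1 (Lmo2) was called with DESeq2, with no filter and with the block, and 0 in the other alternatives. LIM-homeodomain genes called numbered 6 with no filter and 4 with the block (0 to 4 without 1 library), against 2. Downstream genes called numbered 2 with DESeq2, 4 with no filter and 2 with the block (0 to 2 without 1 library), against 1, and bHLH and GATA partners 0 to 1 without 1 library. Among named genes the block changed the calls of Lmo2, Isl1, Lhx9 and Slc18a3. The log2 fold change of Rlim was -0.00031 with DESeq2, -0.00050 with median-of-ratios scaling and -0.00073 with no filter. Without 1 library, log2 fold changes crossed 0 for Lmo1 (-0.036 to 0.19), Ssbp3 (-0.032 to 0.023), Ssbp4 (-0.021 to 0.11), Rlim (-0.048 to 0.077), Rbbp8 (-0.15 to 0.0085), Mnx1 (-0.011 to 0.34) and Qdpr (-0.030 to 0.17). The cervical minus thoracic share of Ssbp3 was -0.71 to 0.58 percentage points and that of Lmo4 -5.57 to -4.46 without 1 library. Exchanging shares within the same-numbered pairs gave exact permutation p of 0.25 for Lmo4 and 0.75 for Ssbp3. The causes of these changes were not tested.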
